A study of Mus musculus with 6 samples.

Results

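The Hippo pathway was examined in RAW264.7, a macrophage-like cell line from a mouse tumour, through the 10 genes that make up its centre: the kinase genes Stk3, Stk4, Lats1 and Lats2, the coactivator genes Yap1 and Wwtr1, and the DNA-binding partner genes Tead1, Tead2, Tead3 and Tead4. They were taken by symbol from the 39089 genes of the deposited table, and all 10 were found. All cells, labelled wild type, were kept for 48 h with 100 ng/mL of lipopolysaccharide, or LPS, a cell wall component of bacteria that activates macrophages. In 3 of the 6 libraries this was the whole treatment (LPS), and in the other 3 ultrasound was added: 2 exposures of 25 min to low-intensity pulses (LIPUS) of 45 mW/cm2, at an interval of 24 h. No library without LPS was analysed here, so levels are those of LPS-treated cells. The labels do not say whether replicates were separate cultures, and p-values measure the spread between these libraries, which may be technical.

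The Hippo pathway is a kinase relay that keeps a pair of transcriptional coactivators out of the nucleus. The MST kinases, encoded by Stk4 (MST1) and Stk3 (MST2), activate the LATS kinases, and LATS phosphorylates YAP (Yap1) and TAZ (Wwtr1), which are then held in the cytoplasm or degraded. When the relay is quiet, as on a stiff or stretched substrate, YAP and TAZ enter the nucleus and bind TEAD proteins on DNA. In blood cells the MST kinases also act apart from YAP, in adhesion, survival and the control of FOXO proteins.

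Libraries held 14171061 to 15956693 gene counts, and Spearman correlations of log2 CPM (counts relative to library size) were 0.994 to 0.996 within groups and likewise between them. The macrophage label held for its markers. All 8 macrophage genes listed were present, with a summed level of 17432 to 18743 TPM (the deposited level per length, scaled to 1000000 per library). Most of this sum was Lyz2, at a mean of 15766 TPM. Of 20 fibroblast, epithelial and endothelial markers, 7 had no count in any library, among them Epcam, Cdh1 and Cdh5. Over all 39089 genes 18309 had no count, which is a larger share. The markers of these lists with the most counts were Vwf (1270 over all 6 libraries), Dcn (131) and Col1a1 (71).

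LPS-treated cells held transcripts of the kinases and almost none of the coactivators and TEAD factors. Stk4 was the most abundant member at 28.7 ± 1.67 TPM (SD over 6 libraries), rank 4040 among 39089 genes. It was followed by Lats1 at 21.9 ± 1.73 TPM, Stk3 at 10.1 ± 0.95 TPM and Lats2 at 9.55 ± 0.77 TPM. Tead2 was far below them at 0.595 ± 0.165 TPM, and Wwtr1, Tead4 and Tead1 averaged 0.0753, 0.0234 and 0.00931 TPM. Yap1 and Tead3 had no count in any library. In this order the ranges over the 6 libraries were apart between Stk4 and Lats1, Lats1 and Stk3, Lats2 and Tead2, and Tead2 and Wwtr1. They overlapped between Stk3 and Lats2 and among the members below Tead2. For Yap1, 0 counts allow up to 3 over all libraries, or 0.0157 TPM, so the mean level of Stk4 was at least 1834-fold higher than that of Yap1. For Tead3 the same limit was 0.0230 TPM and the difference at least 1246-fold. In bulk RNA, fewer cells with a transcript and less of it per cell cannot be told apart, which applies to every low member.

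**Figure D1:**
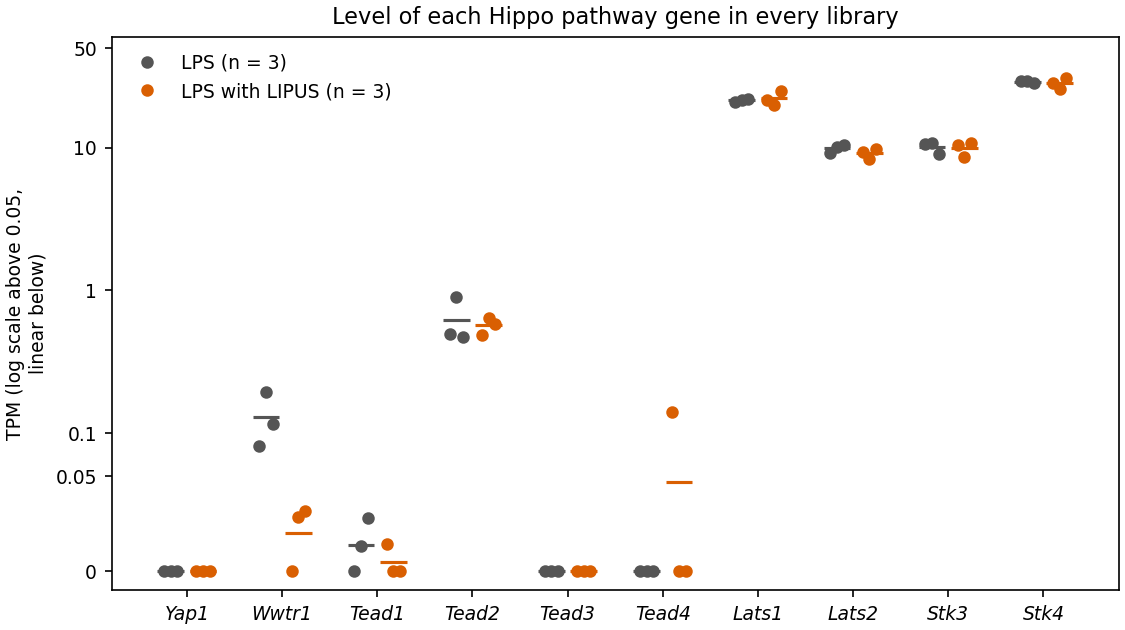
Level of each member in TPM in every library (points) with the group mean (bar), on an axis that is logarithmic above 0.05 TPM and linear below. The 4 kinase genes lie between 8.37 and 30.8 TPM in all 6 libraries, Tead2 between 0.468 and 0.905, and Yap1 and Tead3 at 0.

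Within each family 1 member carried most of the level. Stk4 held 73.2 to 76.0% of the MST level in TPM across the 6 libraries, and Stk3 the rest. Lats1 held 67.8 to 71.9% of the LATS level. Tead2 supplied 61 of the 68 counts of the TEAD family. Tead1 had 4 counts in all, and Tead4 had 3, all in LIPUS library 1. Summed over each family, the MST level was 34.4 to 41.7 TPM, the LATS level 28.4 to 34.9 TPM and the TEAD level 0.492 to 0.918 TPM. The coactivators together reached at most 0.195 TPM in a library.

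The sequences before the start sites of Yap1, Wwtr1 and Stk4 are shown because these genes are the undetected coactivator, the barely detected coactivator and the most abundant member. Each run is the 250 bases before a RefSeq start site (GRCm38.p6), read 5′ to 3′ on the gene's strand, with CpG pairs in capitals. They lie at chr9:8004597-8004846 (minus strand), chr3:57575911-57576160 (minus) and chr2:164073888-164074137 (plus).
Yap1: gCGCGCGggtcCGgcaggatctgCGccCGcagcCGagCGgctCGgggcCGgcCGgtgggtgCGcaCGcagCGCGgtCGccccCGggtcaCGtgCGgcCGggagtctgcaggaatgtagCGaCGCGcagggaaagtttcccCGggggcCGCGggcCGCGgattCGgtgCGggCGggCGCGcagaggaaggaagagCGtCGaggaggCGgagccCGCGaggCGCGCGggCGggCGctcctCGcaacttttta
Wwtr1: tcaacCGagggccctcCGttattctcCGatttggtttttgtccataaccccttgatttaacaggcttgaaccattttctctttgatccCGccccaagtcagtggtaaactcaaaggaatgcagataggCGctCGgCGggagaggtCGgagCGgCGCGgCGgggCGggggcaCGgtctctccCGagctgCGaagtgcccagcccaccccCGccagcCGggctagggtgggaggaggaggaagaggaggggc
Stk4: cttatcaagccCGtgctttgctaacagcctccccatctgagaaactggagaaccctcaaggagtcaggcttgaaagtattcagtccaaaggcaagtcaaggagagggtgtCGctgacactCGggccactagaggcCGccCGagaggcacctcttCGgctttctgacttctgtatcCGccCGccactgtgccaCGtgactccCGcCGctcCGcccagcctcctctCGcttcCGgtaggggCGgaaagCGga
Yap1 had 44 CpG pairs in this window, with an observed to expected ratio of 1.25 and 76.4% G and C. Wwtr1 had 18 pairs (ratio 0.765) and Stk4 16 (ratio 0.719). Over 32817 such windows of the RefSeq table the median was 6 pairs and a ratio of 0.373, and 33.9% of windows had a ratio above 0.6. Promoter windows were in the table for 7 of the 10 members. At the window nearest the deposited gene start, Yap1, Wwtr1, Tead3, Lats1, Lats2 and Stk4 were all above 0.6 and Tead2 was at 0.425, so the highest ratio of the 7 belonged to a gene with no count. The TEAD motif GGAATG, searched on both strands (CATTCC), was present in those windows of Yap1, Wwtr1 and Tead3, each with 1 match. It was in none of Tead2, Lats1, Lats2 and Stk4, and 12.6% of all windows held it. A match is a match of letters and was not tied to binding by any measurement here.

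The comparison of LIPUS with LPS alone asks whether ultrasound, a mechanical stimulus, altered transcript levels. The kinase genes were close in both groups. Fold changes are LIPUS over LPS from edgeR's quasi-likelihood fit over all genes with a Benjamini-Hochberg adjustment. Of the 10 members 4 passed the filter on low counts and 0 passed an adjusted p of 0.05, against a background of 0% of 12571 genes tested. At an unadjusted p below 0.05 the counts were 0 of the 4 members and 4.61% of genes. DESeq2 called 0 genes as well.

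Stk4, the main MST gene (mm10, chromosome 2, 164074113 to 164155524, plus strand), had 110.2, 107.1 and 106.7 CPM in LPS libraries 1 to 3 and 103.2, 100.7 and 107.3 CPM in LIPUS libraries 1 to 3, scaled by TMM. The groups overlapped, since LIPUS library 3 lay within the LPS range. The log2 fold change was -0.06 ± 0.05 (SE), with an adjusted p of 0.999, and the fold itself had a 95% interval of 0.891 to 1.04. Its paralog Stk3 (chromosome 15, 34875499 to 35155882, minus strand) had 19.3, 18.9 and 16.3 CPM with LPS and 18.2, 16.3 and 18.2 CPM with LIPUS. The lowest library of each group was at the same level, and the log2 fold change was -0.05 ± 0.10 (adjusted p = 0.999, fold interval 0.838 to 1.12).

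Lats1 (chromosome 10, 7681200 to 7716461, plus strand), the larger source of LATS transcript, had 78.9, 78.4 and 82.5 CPM with LPS and 78.7, 78.7 and 87.6 CPM with LIPUS. LIPUS library 3 was the highest and the other 5 libraries lay close together. The log2 fold change was 0.03 ± 0.06 (adjusted p = 0.999, fold interval 0.938 to 1.11), and it was -0.02 without LIPUS library 3. Lats2 (chromosome 14, 57689662 to 57746212, minus strand), the other LATS kinase and itself a known YAP target gene, had 25.4, 27.3 and 28.9 CPM with LPS and 24.8, 24.1 and 25.2 CPM with LIPUS. Every LIPUS library was below every LPS library, the nearest pair being 25.2 and 25.4 CPM. Groups did not overlap in 1 of the 4 tested members, and they did not overlap in 9.72% of all genes tested, with 4.63% lower in LIPUS as here. The log2 fold change of Lats2 was -0.14 ± 0.08 (unadjusted p = 0.109, adjusted p = 0.999, fold interval 0.807 to 1.02). The Lats1 share of the LATS level was 68.4 ± 0.98% in the LPS group and 70.8 ± 0.97% in the LIPUS group (SD, n = 3 each). The groups did not overlap, a difference seen in the data and not tested. It rests on the same Lats1 and Lats2 reads as the values above and is not a separate observation. No background over all genes was computed for such shares.

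**Figure D2:**
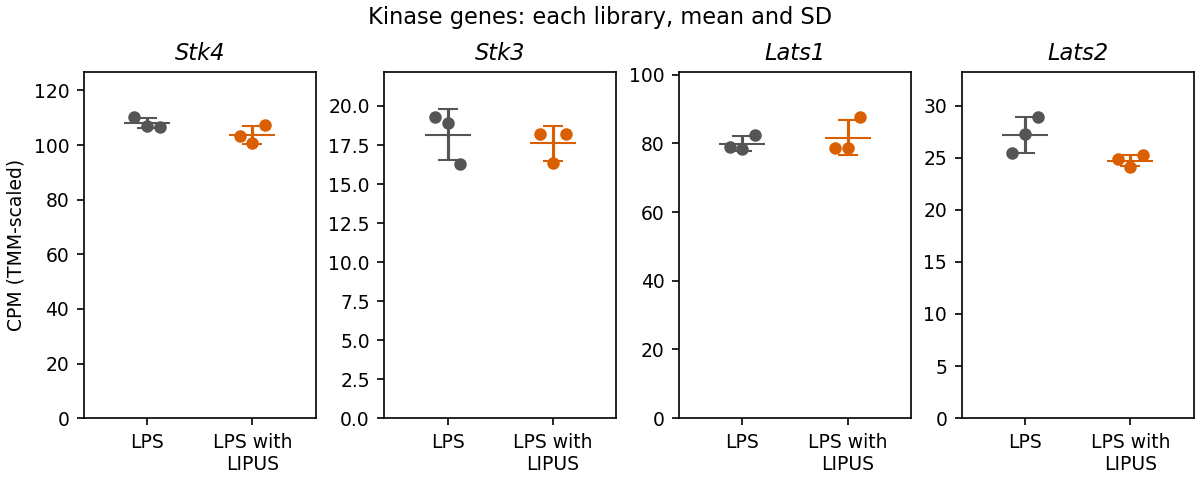
TMM-scaled CPM of the 4 kinase genes in each library (points), with mean and SD (bars, n = 3 per group) and axes from 0. The groups overlap for Stk4, Stk3 and Lats1, and for Lats2 the LIPUS libraries at 24.1 to 25.2 CPM lie just under the LPS libraries at 25.4 to 28.9 CPM.

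The spread over all 6 libraries, which includes any difference between the groups, was above that of counting for each kinase gene. Whether the excess goes beyond the sampling error of a spread from 6 libraries was not tested. The coefficient of variation over all 6 libraries was 3.17% for Stk4, where counting alone gives 2.51%. It was 4.55% for Lats1 (2.88% from counting), 6.83% for Lats2 (5.07%) and 7.16% for Stk3 (6.11%). For all 4 kinase genes both ends of the 95% interval were nearer to no change than 1.3-fold, as they were for 8428 of the 12571 genes tested. Near the start of Lats1 the oppositely oriented Pcmt1 (4474 counts in all) overlaps it, and Gm52140 (110 counts) overlaps Lats2. The sources used here do not say whether reads were counted by strand, so reads in the shared stretches cannot be told apart.

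Among the members below the filter, Wwtr1 (chromosome 3, 57455644 to 57575910, minus strand), which encodes TAZ, differed between groups in its few reads. Its counts were 3, 7 and 4 with LPS, against 0, 1 and 1 with LIPUS. Every LIPUS library was below every LPS library, as in 2% of the 8209 genes below the filter that had counts. Such a separation needs a count in all 3 LPS libraries. Genes with fewer counts could not show it, which lowers that share. Among tested genes, which do not include Wwtr1, the share was 4.63%. The 14 counts against 2 correspond to 0.301 ± 0.130 CPM in the first group and 0.0464 ± 0.0402 CPM in the second (SD, n = 3 each). Their ratio was 0.152, with an exact 95% interval of 0.0168 to 0.663 that covers counting error only. The filter gives it no p in the main test. With no filter, edgeR's quasi-likelihood test put it at -2.51 ± 1.18 on the log2 scale (SE, adjusted p = 0.899). In the authors' deposited table Wwtr1 is the 1 member among the 351 genes listed as changed, with a log2 fold change of -2.51 and an unadjusted p of 0.00499. That p is 1 after a Benjamini-Hochberg adjustment over the authors' deposited table of all genes. That table lists 1.84% of the genes below the filter as lower with LIPUS. That share, too, covers genes with very few counts.

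Wwtr1 is best known from adherent, matrix-producing cells, so fibroblast markers are given beside it. Of 8 listed, 6 had counts, and Col3a1 and Thy1 had none. Col1a1, the collagen I gene, was also lower with LIPUS, with 11, 25 and 16 counts against 9, 3 and 7 (log2 fold change -1.34 ± 0.46, adjusted p = 0.890), and it too is in the authors' deposited table of changed genes. In both genes LPS library 2 was the highest, as it also was for Tead2 (16 counts). Among the macrophage markers listed this held only for Csf1r (585.2 CPM). These genes were compared after their values were seen. Dcn, which encodes the matrix proteoglycan decorin, went the other way, with 18, 14 and 22 counts against 15, 29 and 33 (0.60 ± 0.34, adjusted p = 0.999), and Col1a2 had 1 count in each group. The summed fibroblast level was 1.41 to 1.85 TPM in the LPS libraries and 1.24 to 2.69 TPM in the LIPUS libraries. The part of such transcripts in the Wwtr1 counts was not tested.

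The TEAD genes gave no difference that could be detected at this depth. Tead2, the TEAD gene with most of the reads (chromosome 7, 45215792 to 45233468, plus strand), had 9, 16 and 8 counts with LPS and 8, 11 and 9 with LIPUS. The groups overlapped, and the ratio was 0.905 with a counting interval of 0.527 to 1.54. Tead1 (chromosome 7, 112679356 to 112906784) had 0, 1 and 2 counts against 1, 0 and 0, a ratio of 0.356 with an interval of 0.00677 to 4.43. Tead4 (chromosome 6, 128227143 to 128300813) had 3 counts in LIPUS library 1 and 0 elsewhere. Yap1 (chromosome 9, 7931999 to 8004638) and Tead3 (chromosome 17, 28331671 to 28350805) were at 0 in both groups, which gives no fold.

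**Figure D3:**
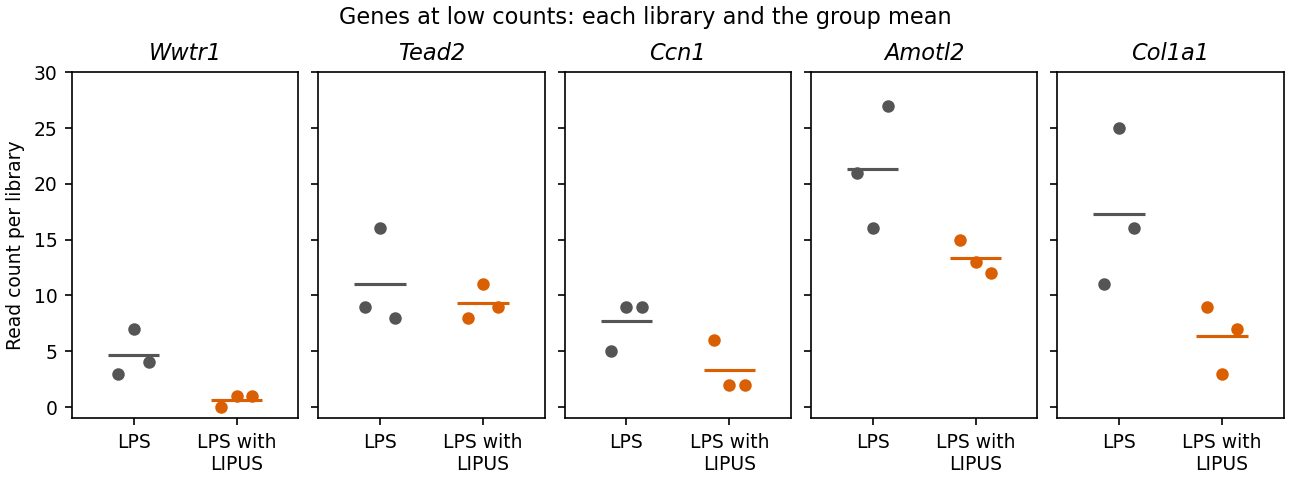
Read counts per library (points) and group means (bars) for Wwtr1 and Tead2, for the YAP/TAZ target genes Ccn1 and Amotl2, and for the fibroblast marker Col1a1. Wwtr1 has 3 to 7 counts in the LPS libraries and 0 to 1 in the LIPUS libraries, while the Tead2 groups overlap.

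The transcript table lists 41 RefSeq transcripts of the members, and a read is counted for every transcript it matches. Of these, 16 were tested, all from the 4 kinase genes. None passed an adjusted p of 0.05 (background 0% of 52257 transcripts by edgeR's quasi-likelihood test, where 5.38% had an unadjusted p below 0.05), and 0 of the 16 had an unadjusted p below 0.05. Their log2 fold changes ran from -0.27 to 0.04. Transcripts with nearly the full set of reads were XM_030251913.1 for Stk4 (99.8% of the gene's reads), NM_010690.1 for Lats1 (99.3%), NM_001357821.1 for Stk3 (98.9%) and NM_015771.2 for Lats2 (97.0%). The shorter curated Stk4 transcript, NM_021420.4, at 5232 bases against 7459, took 89.2% of the gene's reads with LPS and 88.7% with LIPUS on average. The short Lats2 transcript NM_153382.1, of 904 bases, took 6.33% and 5.82%, from 15 to 31 counts per library. All 10 listed Yap1 transcripts were at 0.

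Genes that feed the kinase relay were described as a list, and most of them had enough counts to be tested. It held 27 genes: the scaffold and adaptor genes, the upstream TAO and MAP4K kinases, the NDR kinases, and the RASSF, FAT and DCHS families. Of these, 23 could be tested, and 12 were higher and 11 lower in the LIPUS mean. None passed over all genes (background 0%), and 2 of 23 had an unadjusted p below 0.05, beside 4.61% of all genes tested. Fat4 had no count, and Wwc2 and Tnik, at 0.0488 and 0.0105 TPM, lay below Wwtr1. The median log2 fold change was 0.01, beside -0.01 over all genes tested, and 19 of the 23 had both interval ends nearer to no change than 1.3-fold. Nf2, which encodes the scaffold merlin that brings LATS to the membrane, was the most abundant at 145.7 TPM, with a log2 fold change of -0.06 ± 0.05. The next most abundant were Map4k4 (96.6 TPM, -0.06 ± 0.05), a kinase that can act on LATS in parallel to MST, and Rassf4 (91.9 TPM, -0.07 ± 0.05), of a family that binds MST. Core adaptors were also present, named here for their role with their values known. Sav1, the MST scaffold, had 31.5 TPM (0.05 ± 0.06), and Mob1a, the LATS coactivator, had 64.1 TPM (-0.02 ± 0.06).

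The smallest p in that list belonged to Taok1, a kinase that activates MST. It had 101.5, 97.5 and 106.0 CPM with LPS and 112.9, 110.4 and 138.1 CPM with LIPUS. Each LIPUS library was above each LPS library, with LIPUS library 3 well above the rest. The log2 fold change was 0.24 ± 0.07 (adjusted p = 0.705). It was 0.14 without LIPUS library 3, and with no filter on low counts the gene passed at an adjusted p of 0.0358. Mob1b, paralog of Mob1a, had 24.2, 26.3 and 25.6 CPM against 29.0, 29.0 and 28.7 CPM. These groups did not overlap either, and the log2 fold change was 0.19 ± 0.08 (adjusted p = 0.999). Groups did not overlap in 5 of the 23 tested genes of this list, beside 9.72% of all genes: Taok1, Mob1b and Rassf2 were higher with LIPUS, and Map4k4 and Rassf4 lower. Rassf2, Wwc2 and Tnik are named after their values were seen.

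A further 29 genes restrain the kinases or act on the coactivators: the STRIPAK phosphatase complex that removes phosphate from MST, LIM-domain inhibitors of LATS, angiomotins and other YAP-binding proteins, VGLL factors that compete for TEAD, and genes of YAP capture and degradation. Of 24 tested, 10 were higher and 14 lower in the LIPUS mean, and the median was -0.03 on the log2 scale beside -0.01 over all genes. None passed over all genes (background 0%), and 2 of 24 had an unadjusted p below 0.05, beside 4.61% of all genes tested. They were Sike1, of the STRIPAK complex, at 0.16 ± 0.07 and Slmap, its adaptor that docks MST, at 0.12 ± 0.06 (adjusted p = 0.999 each). The most abundant were Ppp2r1a, the scaffold subunit of protein phosphatase 2A, at 354.4 TPM (-0.08 ± 0.05), Ywhae at 302.1 TPM (-0.04 ± 0.05) and Ywhag at 221.1 TPM (-0.05 ± 0.05), whose products bind phosphorylated proteins such as YAP. Ywhah, of the same family, was at -0.09 ± 0.05. The angiomotin gene Amot had no count, as did Vgll1, Vgll2 and the LIM gene Wtip.

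Targets of YAP and TAZ were taken from a signature of human tumours, 22 genes matched by symbol. Their dependence on YAP or TAZ in these cells was not measured. Of the 22 genes, 11 were tested for a difference between groups. The LIPUS mean was higher for 4 of these and lower for 7, and the median was -0.02 on the log2 scale beside -0.01 over all genes. None passed over all genes (background 0%), and 0 had an unadjusted p below 0.05. The targets used most often as reporters were near or at 0. Ccn2 and Ankrd1 had no count, as did Igfbp3 and Foxf2. Ccn1, which encodes a secreted matrix protein and is named here for its use as a reporter, had 5, 9 and 9 counts with LPS and 6, 2 and 2 with LIPUS. Its groups overlapped through LIPUS library 1, and the ratio was 0.464 with a counting interval of 0.197 to 1.01. Amotl2, an angiomotin family gene, had 21, 16 and 27 counts against 15, 13 and 12 (log2 fold change -0.58 ± 0.34, adjusted p = 0.999). Ptpn14, a phosphatase gene that binds YAP, was at 0.19 ± 0.12 and Asap1, an ARF regulator, at -0.12 ± 0.09. Abundant signature genes were Myof, encoding the membrane repair protein myoferlin, at 130.6 TPM (0.03 ± 0.05), the stress gene Gadd45a at 115.8 TPM (-0.02 ± 0.07) and Dock5, a RAC activator, at 28.8 TPM (-0.01 ± 0.07). Amotl2 and Ptpn14 stand in 2 of these lists, and Lats2 is a member as well.

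**Figure D4:**
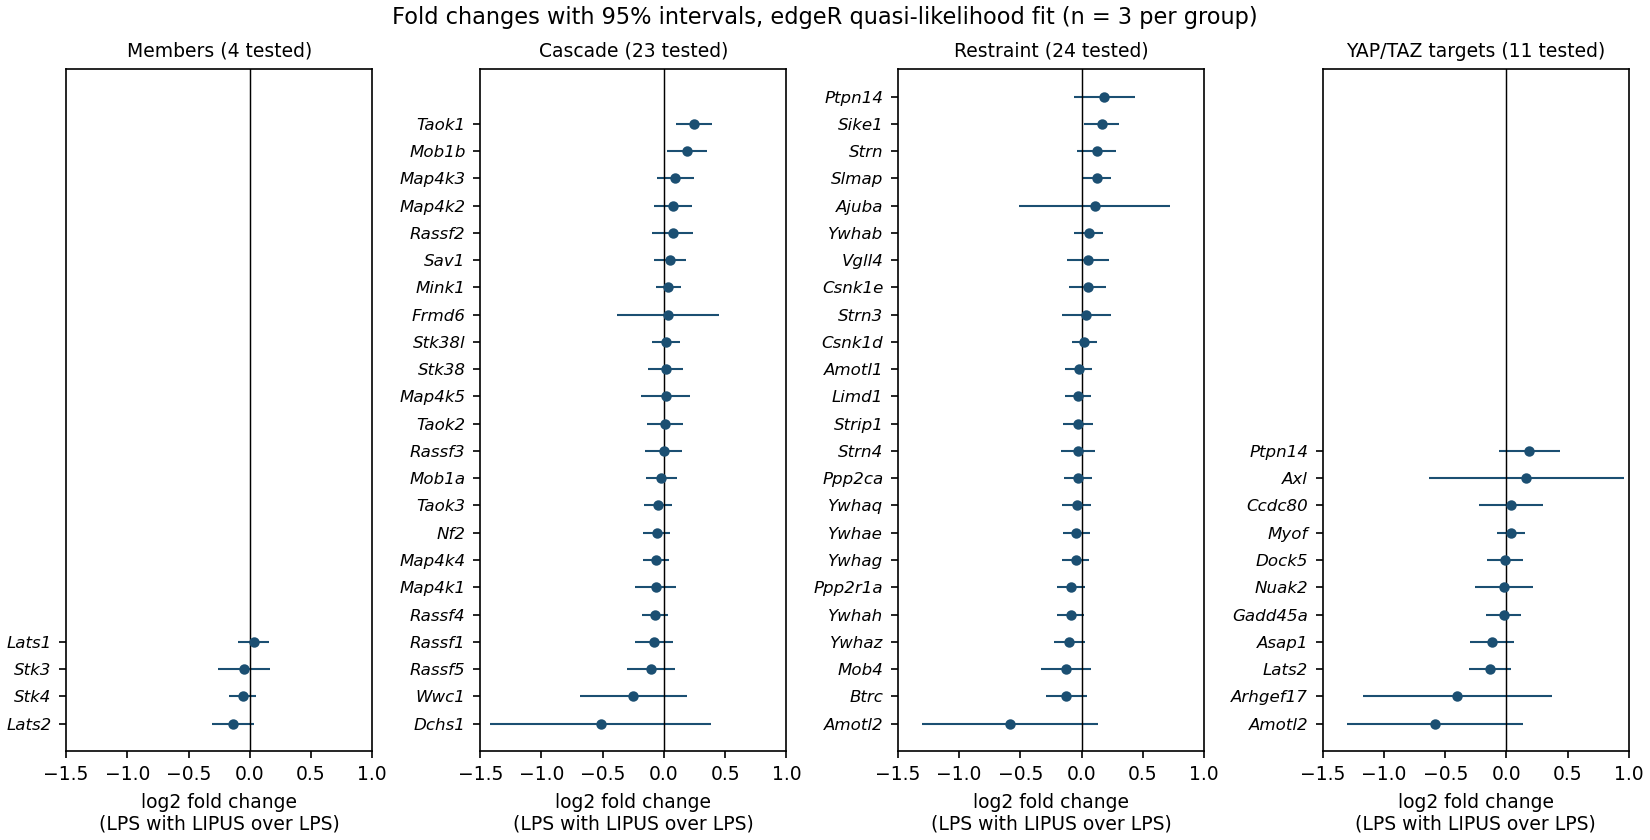
Log2 fold changes of LPS with LIPUS over LPS (points) with 95% intervals (lines) for the tested members and the 3 pathway lists, from edgeR's quasi-likelihood fit with n = 3 per group. Taok1 has the interval farthest above 0, and no gene shown passed an adjusted p of 0.05.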

How the data were processed

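RNA was selected by poly(A) tail and sequenced as paired-end Illumina reads, per the labels' protocols. The submitters' processing notes name bcl2fastq and mm10, and give no aligner, counting tool or annotation release. The authors deposited raw counts per gene and per transcript with lengths, and TPM, per the file headers (count over length, each library scaled to a total of 1000000). The authors' deposited comparison tables hold a normalised count (a signal), a log2 fold change and an unadjusted p-value per gene; their test is not stated there.

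Counts were tested with edgeR 4.0.16 (R 4.3.3): TMM, filterByExpr (minimum count 10), glmQLFit and glmQLFTest, group as the single term, two-sided, Benjamini-Hochberg over all 12571 genes kept of 39089, threshold 0.05. These held 99.9% of counts; 8209 genes with counts were removed. The same fit was run on transcripts. It was tested on simulated data. Ratios of summed counts have exact conditional binomial 95% intervals, which cover counting error only; a count of 0 allows 3. The biological coefficient of variation was 5.84%.

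Members and lists were chosen with earlier results of these data known. Named were all members and, per list, the 4 tested genes with the smallest p and the 3 of highest TPM; others are said to be so or were named for being at 0. Alternatives were DESeq2 1.42.0, its size factors in edgeR, no filter, a replicate block and each library left out.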

Additional observations from a re-analysis of the deposited data

How the results depend on the processing

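No Hippo member passed an adjusted p of 0.05 under any alternative run: DESeq2, DESeq2 size factors in edgeR, no filter, the replicate block, or leaving out each library. The count over all genes was 31 with no filter, 5 with the replicate number as a block, and 0 to 6 with a library left out (2 without LPS library 1, 3 without LIPUS library 2 and 6 without LIPUS library 3), against 0 in the main test. In the cascade list it was 1 with no filter (Taok1, log2 fold change 0.25). Over transcripts it was 242 with no filter, 11 with the block and 0 to 10 with a library left out, and 0 member transcripts passed in any of these. For the 4 tested members and 27 named list genes, 298 of 310 alternative values kept their direction and their side of the threshold. Values that changed sign did so when a library was left out: Lats1 ran from -0.019 to 0.061, Stk3 from -0.11 to 0.0045, Myof from -0.0079 to 0.072, Gadd45a from -0.11 to 0.027, Dock5 from -0.12 to 0.059, Lyz2 from -0.14 to 0.0060 and Mob1a from -0.064 to 0.029. The causes were not tested. With a library left out, the log2 ratio of summed counts ran from -3.14 to -2.12 for Wwtr1 (-2.71 with all 6). It ran from -0.30 to 0.21 for Tead2 (-0.14 with all 6). For Ccn1 (-1.11) it ran from -1.83, without LIPUS library 1, to -0.85. For Tead1 (-1.49) it ran from -2.09 to -0.46, the latter without LPS library 3. The Tead1 range leaves out the run without LIPUS library 1. That library holds the only LIPUS count of Tead1, so the run has no finite log2 ratio.

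Same-numbered libraries did not visibly deviate together (correlations -0.07 to 0.01, and LPS library 1 correlated best with LIPUS library 2). Such small correlations cannot decide whether same-numbered libraries shared a culture or batch, because counting error can hide a shared deviation. The labels do not say. Depth limits Wwtr1, Yap1 and the TEAD genes, which had 0 to 16 counts per library.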

Other observations

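Among the markers of other cell types, some genes were present without the rest of their list. Vwf, the von Willebrand factor gene of endothelial cells and platelets, had 635 counts in each group (3.24 TPM, 0.09 ± 0.11 on the log2 scale, SE, adjusted p = 0.999), while the endothelial gene Cdh5 had none and Pecam1 had 9 in all 6 libraries together. Pecam1 was picked after its values were seen. Among the macrophage markers, Ptprc, the leukocyte phosphatase gene CD45, had the smallest p, at 0.15 ± 0.05 on the log2 scale (adjusted p = 0.842). The granule gene Lyz2 was at -0.05 ± 0.08, Cd68 at -0.05 ± 0.06, Csf1r, the receptor for macrophage growth factor, at -0.05 ± 0.06, and Spi1, the myeloid transcription factor gene, at 0.04 ± 0.05. No epithelial marker reached the filter on low counts.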
